A study of Mus musculus with 18 samples.

Results

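Histone genes were described in colorectal RNA sequencing from 18 libraries, 6 in each of 3 mouse groups, as a replication-dependent and a replacement class taken apart. They were chosen by symbol: a name starting with Hist1h, Hist2h, Hist3h or Hist4h put a gene in the replication-dependent class, and one starting with H1f, H2af or H3f in the replacement class. The deposited table of 10897 genes uses newer symbols for most histones, so the literal rule matched 9 rows, 1 by a Hist prefix and 8 by a replacement prefix. The symbols of the GENCODE M21 annotation for the same gene identifiers matched 25, 12 replication-dependent and 13 replacement, and these 25 are described. One of the 9, H1f2, starts with H1f in the table but is Hist1h1c by the older symbol and was counted as replication-dependent. The annotation holds 70 genes with the replication-dependent prefixes and 21 with the replacement prefixes, and those outside the table are not analysed here. Every gene of the table had an FPKM (fragments per kilobase of gene length, relative to depth) of at least 1 in at least 15 libraries, and why other histone genes are not among them was not tested.

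All animals were 10 weeks old C57BL/6J males. The sample characteristics give Control as wild-type SPF (specific pathogen-free) mice, GF-AOM as germ-free mice and GF-AOMS as germ-free mice that were also exposed to cigarette smoke, all 3 with colorectal cancer induced by azoxymethane (AOM). The treatment protocol instead calls Control normal, GF-AOM an azoxymethane model and GF-AOMS azoxymethane with smoke, and the growth protocol gives SPF housing. GF-AOM and GF-AOMS are set apart by smoke exposure whichever description holds, and what separates either from Control is not settled by the labels. The labels name 6 mice per group but do not state that each library is a separate mouse, so p-values cover only the spread among samples, which may be technical. Whole colon tissue was sequenced, so fewer cells of a type and less RNA per cell cannot be told apart.

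Nucleosomes wrap DNA around the core histones H2A, H2B, H3 and H4, and the linker histone H1 binds where the DNA enters and leaves. Replication-dependent genes supply most of these proteins during S phase. They lie in clusters, usually lack introns, and their mRNAs mostly end in a stem-loop bound by the protein Slbp in place of a poly(A) tail. Most replacement genes stand alone, have poly(A) mRNAs and are transcribed throughout the cell cycle. In the colon, dividing cells sit near the crypt base and the differentiated cells above them no longer replicate. The libraries were depleted of ribosomal RNA, per the labels' protocols, so mRNAs without a poly(A) tail could be sampled too.

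Of the 12 replication-dependent genes, 8 lay on chromosome 13 between 21750194 and 23740367 (H1f2, H2bc4, H2bc8, H2bc11, H4c8, H4c9, H4c12 and Hist1h4n), 2 on chromosome 3 (H2bc21 and H2ac18) and 2 on chromosome 11 (H2aw and H2bu2). By protein type they were 1 of the 6 H1 genes, 2 of the 20 H2A genes, 5 of the 19 H2B genes, 0 of the 12 H3 genes and 4 of the 13 H4 genes of that class in the annotation. The replacement class held 2 H1 genes (H1f0, H1f10), 6 H2A genes (H2az1, H2az2, H2ax, H2aj, Macroh2a1, Macroh2a2) and 5 H3 genes, of which H3f3a and H3f3b code for protein. The other 3, H3f3c, H3f3a-ps1 and H3f3a-ps2, are annotated as processed pseudogenes. They lay on 11 chromosomes. In the replication-dependent class 11 of 12 genes had a single exon, H2bc4 being the exception with 2, against 6 of 13 in the replacement class. Their longest transcripts had a median of 616 bases against 1633. Positions are those of the table, which match build GRCm38.

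The promoters of 19 members, 9 replication-dependent and 10 replacement, were found in the RefSeq promoter table of GRCm38.p6. The 200 bases before the annotated start of 5 of them are shown in lower case, because values below turn on these genes. Capitals mark the letters ATTTGCAT, known as the octamer bound by Oct1 at H2B genes, CCAAT and TATAAA, each searched on both strands.

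H2bc8, chr13:23571200-23571399, plus strand: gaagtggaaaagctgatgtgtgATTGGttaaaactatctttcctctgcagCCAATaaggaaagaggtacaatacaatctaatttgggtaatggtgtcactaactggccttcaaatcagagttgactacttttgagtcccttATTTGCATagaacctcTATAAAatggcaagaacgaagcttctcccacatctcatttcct
H1f2, chr13:23738607-23738806, plus strand: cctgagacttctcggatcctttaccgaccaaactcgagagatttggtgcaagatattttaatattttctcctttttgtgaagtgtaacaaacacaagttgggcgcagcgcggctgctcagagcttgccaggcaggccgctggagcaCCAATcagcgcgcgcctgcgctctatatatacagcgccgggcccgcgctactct
H4c9, chr13:22041363-22041562, minus strand: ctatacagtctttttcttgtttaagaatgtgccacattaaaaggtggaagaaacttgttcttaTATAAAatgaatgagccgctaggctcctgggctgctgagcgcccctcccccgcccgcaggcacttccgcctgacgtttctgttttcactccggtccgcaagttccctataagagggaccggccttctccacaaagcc
H2az1, chr3:137864287-137864486, plus strand: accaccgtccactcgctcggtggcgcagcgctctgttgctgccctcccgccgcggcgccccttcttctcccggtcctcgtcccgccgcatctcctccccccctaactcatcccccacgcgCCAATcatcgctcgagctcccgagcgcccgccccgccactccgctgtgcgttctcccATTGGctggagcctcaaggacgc
H2az2, chr11:6444444-6444643, minus strand: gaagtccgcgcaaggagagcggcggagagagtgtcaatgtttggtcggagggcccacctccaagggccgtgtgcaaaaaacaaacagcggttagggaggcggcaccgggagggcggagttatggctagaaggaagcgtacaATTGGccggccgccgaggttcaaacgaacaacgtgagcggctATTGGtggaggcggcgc

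The H2bc8 window carried all 3 motifs, that of H4c9 carried TATAAA only, and those of H1f2, H2az1 and H2az2 carried CCAAT only. In the 250 bases before the start, the octamer was present in 2 of 9 replication-dependent promoters (H2bc8 and H2aw) and 1 of 10 replacement promoters, against 1.6% of 32851 promoters of the table. CCAAT was found in 6 of 9, 5 of 10 and 33.8%, and TATAAA in 4 of 9, 1 of 10 and 12.4%. These motifs do not overlap each other in sequence, a match is a description, and nothing about the factors follows from it.

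Levels were compared between genes by FPKM, which is per length. The replication-dependent class was dominated by H2bc4, an H2B gene, at a mean FPKM of 122.6 over the 18 libraries, and H1f2, a linker histone, at 71.0. H2bc8, another H2B gene, followed at 25.6, and the other 9 lay between 1.81 for H2bu2 and 8.29 for H4c9. H2bc4 and H1f2 together gave 77.1% to 85.0% of the class's summed CPM (counts relative to the scaled library total) in each library. In the replacement class H3f3a (180.7), H2az1 (178.2), H3f3b (166.1) and H1f0 (141.8) had the highest mean FPKM, followed by H2aj (67.6), H2az2 (50.0), H2ax (35.6) and Macroh2a1 (11.8). Macroh2a2, H1f10 and the 3 pseudogenes lay between 1.53 and 6.64. H3f3a, H2az1 and H3f3b do not differ in level beyond their spread, with ranges over libraries of 145.3 to 239.0, 95.8 to 266.0 and 112.2 to 217.1.

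The members differed in how far they spread over libraries. H2ac18, an H2A gene, ranged from 0.733 to 17.7 FPKM, 24.2-fold, and Hist1h4n, an H4 gene, from 0.353 to 5.08, 14.4-fold. Counts of Hist1h4n ran from 10 to 142. At the other end H3f3a ranged 1.65-fold, H2aw 1.71-fold and H3f3b 1.94-fold in FPKM. In CPM, which uses the scaled library total, H3f3b ranged 1.38-fold, H2aw 1.79-fold and H3f3a 2.13-fold. The order of H3f3a and H3f3b thus depended on the scaling. The widest spreads belonged to genes with few counts or with sequence shared with other genes. Of the 50-base words of H2ac18, 100% also occur in other annotated transcripts, including annotated genes that overlap it on both strands, and the share was 85.6% for Hist1h4n. It was 82.0%, 73.8% and 54.3% for the pseudogenes H3f3a-ps2, H3f3c and H3f3a-ps1, 71.5% for H4c12, 59.4% for H2bc11, 49.7% for H2bc8 and 45.8% for H4c8. H2az1 (35.4%), H2aw (31.5%), H2bc4 (30.6%), H4c9 (28.9%), H3f3a (27.1%) and H2bu2 (22.1%) followed, and the other 10 members were at 15.4% or less. How reads with several matches were counted is not given in the sources used here, so values of the 15 genes above 20% are uncertain. H2bc21 and H2az2 shared none.

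**Figure D1:**
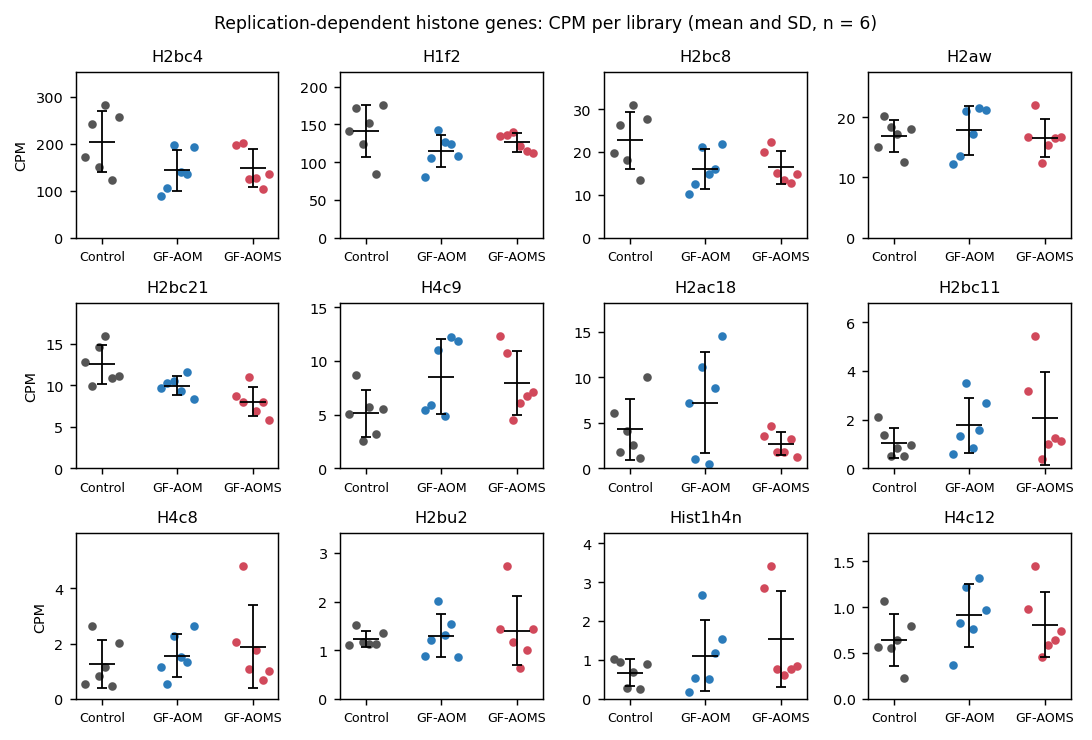
CPM of the 12 replication-dependent histone genes in each of the 18 libraries, with 1 point per library, horizontal bars for group means and error bars for SD (n = 6). Each panel has its own axis starting at 0. The Control points of H2bc4, H2bc8 and H2bc21 reach higher than those of the GF groups, and the groups overlap in every panel.

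Libraries held 48.95 to 79.23 M counts. Ribosomal protein genes took 5.46% to 27.3% of counts. The scaling factors of the trimmed mean of M-values (TMM) ran from 0.721 to 1.155 and were under 0.9 in 5 libraries (Control replicate 2, GF-AOM replicates 3 and 6, GF-AOMS replicates 1 and 2). A length slope, the change of log2 CPM per doubling of gene length relative to the average library, ran from -0.31 to 0.19 and averaged 0.08 in Control, -0.05 in GF-AOM and -0.03 in GF-AOMS. Hoxa13, a gene of the distal colon, did not exceed 3.05 CPM in any of Control replicates 3 to 6. It reached 42.0 and 38.7 CPM in Control replicates 1 and 2, and every GF library had between 24.75 and 53.5 CPM.

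No histone gene passed the test between GF-AOM and Control. Of all 10897 genes, 1 did (0.00918%, adjusted p under 0.05), so the 0 of 25 is read against almost no calls. DESeq2 called 284 genes and limma 0, and neither called a member. At an unadjusted p under 0.05 there were 5 of 25 members against 15.7% of all genes. The replication-dependent class had a median log2 difference of 0.19, with 8 genes positive and 4 negative, and the replacement class 0.16, with 9 positive and 4 negative, beside -0.00 over all genes. The sign of the replication-dependent median depended on the setting and on which members entered. It was -0.11 over genes with an FPKM of at least 5 in 6 libraries. That filter left only H2bc4, H1f2, H2bc8, H4c9, H2aw and H2ac18 of the class, so this median covers fewer members. Without the 5 libraries with a TMM factor under 0.9 it was -0.01. Among the 9 rows of the literal rule the median was 0.05, with 6 positive. No member had groups that did not overlap, against 0.762% of all genes.

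The 4 negative replication-dependent genes were the 4 best measured of that class but for H2aw, which was at 0.08. H2bc4 ran from 122.9 to 282.2 CPM in Control (median 206.9) and from 88.7 to 197.1 in GF-AOM (median 137.6). All 6 GF-AOM libraries lay below the Control mean of 204.6 CPM. Its log2 difference was -0.51 (SE 0.24, adjusted p = 0.315).

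H2bc8 ran from 13.4 to 30.9 CPM in Control (median 23.1) and from 10.1 to 21.9 in GF-AOM (median 15.4), a log2 difference of -0.50 (SE 0.22, adjusted p = 0.302). It shares 45.0% of its 50-base words with H2bc4, so the 2 genes are not independent readings. H1f2 ran from 83.8 to 175.3 CPM in Control (median 146.4) and from 80.4 to 142.1 in GF-AOM (median 116.7), a difference of -0.30 (SE 0.16, adjusted p = 0.348). H2bc21, an H2B gene also described in olfactory neurons, ran from 9.95 to 15.9 CPM in Control (median 12.0) and from 8.28 to 11.6 in GF-AOM (median 9.97), a difference of -0.33 (SE 0.16, adjusted p = 0.315). The groups overlapped in each of these 3 genes. For H2bc21, GF-AOM replicates 1, 4 and 6 lay below every Control library, for H2bc8 replicates 1 and 2 did, and for H1f2 replicate 1 did, while H1f2 in replicate 3 (142.1 CPM) was just above the Control mean of 141.3.

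The H4 genes and H2bc11 had the opposite sign. By pair, the H4 genes share 16.5% to 62.0% of their 50-base words with each other, so they are not independent readings. H4c9 ran from 2.56 to 8.68 CPM in Control (median 5.32) and from 4.86 to 12.2 in GF-AOM (median 8.46), a difference of 0.74 (SE 0.33, adjusted p = 0.301). GF-AOM replicates 3, 5 and 6 lay above every Control library, at 11.0, 12.2 and 11.8 CPM, and the other 3 lay inside the Control range. H2bc11, an H2B gene, ran from 0.483 to 2.096 CPM in Control (median 0.887) and from 0.603 to 3.52 in GF-AOM (median 1.45), with a difference of 0.76 (SE 0.57, adjusted p = 0.463). Hist1h4n, H4c12 and H4c8 were at 0.70, 0.50 and 0.29, and H2ac18 at 0.75 (SE 0.65).

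Among replacement genes Macroh2a1, which encodes the large H2A variant macroH2A with a macro domain, ran from 80.7 to 118.4 CPM in Control (median 106.7) and from 67.1 to 96.8 in GF-AOM (median 79.8). All 6 GF-AOM libraries lay below the Control mean, and the log2 difference was -0.37 (SE 0.14, adjusted p = 0.248), the smallest p of any member in this comparison. H2az1, a gene for the variant H2A.Z found at promoters, ran from 180.9 to 472.8 CPM in Control (median 276.8) and from 270.8 to 544.7 in GF-AOM (median 415.8). Its difference was 0.46 (SE 0.23, adjusted p = 0.333), with 5 of 6 GF-AOM libraries above the Control mean. H2aj, an H2A variant gene, ran from 78.9 to 161.8 CPM in Control (median 121.0) and from 106.5 to 195.3 in GF-AOM (median 180.3), a difference of 0.40 (SE 0.23, adjusted p = 0.374). H3f3a and H3f3b encode the same replacement H3 protein. H3f3a ran from 521.3 to 1078 CPM in Control (median 628.0), from 565.5 to 1079 in GF-AOM (median 706.3) and from 507.3 to 1082 in GF-AOMS (median 671.7), and its log2 difference between GF-AOM and Control was 0.20 (SE 0.22). H3f3b ran from 467.7 to 629.1, 516.4 to 646.0 and 521.0 to 643.8 CPM, a difference of 0.05 (SE 0.10). The ratio of H3f3a to H3f3b thus ran from 0.788 to 1.985 over the libraries. H1f0, the linker histone of differentiated cells, was at means of 332.3, 319.9 and 337.9 CPM in the 3 groups.

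**Figure D2:**
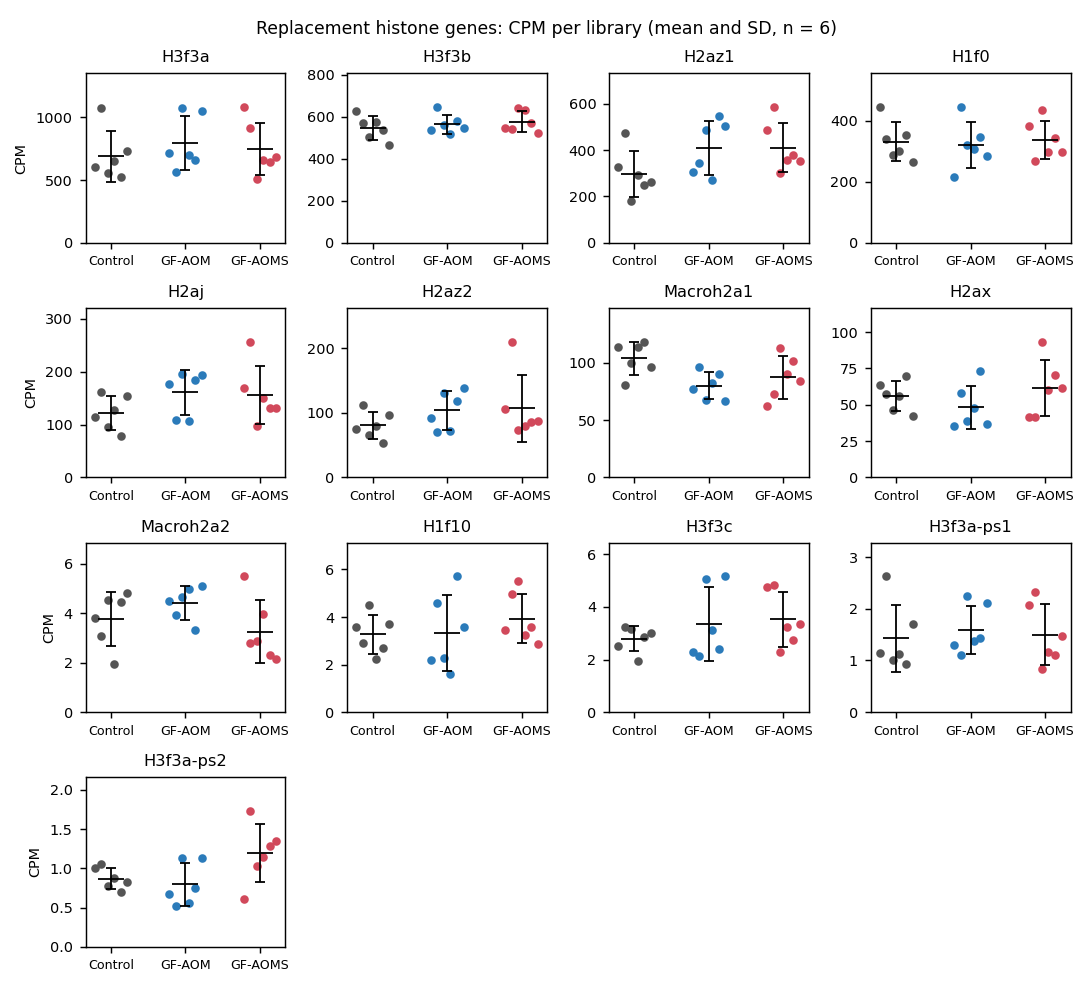
CPM of the 13 replacement histone genes in each of the 18 libraries, with 1 point per library, horizontal bars for group means and error bars for SD (n = 6). Each panel has its own axis starting at 0. H3f3b stays between 467.7 and 646.0 CPM, while a single library stands high in H2az2. H3f3a is at 917.1 CPM or more in the 5 libraries with a TMM factor under 0.9, and at 729.7 or less elsewhere.

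These differences moved with the length slope of the libraries. With the slope as a term of the edgeR model, H2bc4 stood at -0.82 (SE 0.20, adjusted p = 0.168) and H2bc8 at -0.79 (SE 0.18, adjusted p = 0.166), while H2bc11 and Hist1h4n turned to -0.21 and -0.33. H2ac18 turned to -0.38 and H4c8 to -0.35, H4c9 went to 0.25 and H2az1 to 0.13. H2aj went to 0.02 and Macroh2a1 to -0.19. The replacement median then was -0.06 and the replication-dependent median -0.30. Without Control replicates 3 to 6, the libraries with little Hoxa13, H2bc4 was at -0.53, H2bc8 at -0.52 and H2bc21 at -0.19, and H4c9 was at 0.31, H2az1 at 0.03 and the replacement median at -0.09. The part of library composition in these differences was not tested.

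GF-AOMS and GF-AOM were compared to ask what smoke exposure was associated with. No histone gene and no gene of the table passed (0% called). At an unadjusted p under 0.05, edgeR gave 119 genes (1.09%) and 2 members, and DESeq2 called 3 genes, none of them a member. The median was 0.04 in each class, against 0.01 over all genes, with 7 of 12 replication-dependent and 9 of 13 replacement genes positive. Without GF-AOMS replicate 2 the medians were -0.21 and -0.04. No member's groups were apart, against 0.0642% of all genes.

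H2ac18 had the largest difference, -1.41 (SE 0.67, adjusted p = 1). It ran from 0.463 to 14.6 CPM in GF-AOM (median 8.01) and from 1.27 to 4.65 in GF-AOMS (median 2.55). The GF-AOM libraries were split, with 4 at 7.18 CPM or more and 2 at 1.06 or less, and all GF-AOMS libraries lay between. H3f3a-ps2, a processed pseudogene of H3f3a, ran from 0.523 to 1.14 CPM in GF-AOM (median 0.712) and from 0.615 to 1.73 in GF-AOMS (median 1.22), a difference of 0.59 (SE 0.25, adjusted p = 1). It shares 55.2% of its 50-base words with its parent H3f3a, which stood at -0.09.

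H2bc21 was at -0.31 (SE 0.16), with GF-AOMS values of 5.82 to 10.9 CPM (median 7.94). Macroh2a2, the second macroH2A gene, ran from 3.33 to 5.10 CPM in GF-AOM (median 4.58) and from 2.13 to 5.49 in GF-AOMS (median 2.83), a difference of -0.44 (SE 0.25). H2ax, whose protein is phosphorylated beside DNA breaks, ran from 35.1 to 73.1 CPM in GF-AOM (median 43.3) and from 41.3 to 93.3 in GF-AOMS (median 61.2), a difference of 0.35 (SE 0.21). Each had an adjusted p of 1. H1f2 differed by 0.14 (SE 0.16) and H2bc4 by 0.05 (SE 0.24).

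Between GF-AOMS and Control 80 genes of the table passed (0.734%), 12 higher and 68 lower, and again 0 of the 25 histone genes by edgeR. At an unadjusted p under 0.05 there were 2 members against 16.2% of all genes. The median was 0.07 in the replication-dependent class, 6 positive and 6 negative, and 0.14 in the replacement class, 11 positive and 2 negative, against 0.01 over all genes. The replication-dependent median was -0.31 over genes with an FPKM of at least 5 in 6 libraries, a filter that leaves fewer members of the class. It was -0.19 with the length slope and -0.11 without GF-AOMS replicate 2. No member's groups were apart, against 0.798% of all genes. This comparison shares its Control libraries with GF-AOM against Control, so the values of the 2 are not independent.

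H2bc21 came closest to the threshold. It ran from 9.95 to 15.9 CPM in Control (median 12.0) and from 5.82 to 10.9 in GF-AOMS (median 7.94). All 6 GF-AOMS libraries lay below the Control mean of 12.5 CPM, and 1 of them, replicate 3 at 10.9 CPM, lay inside the Control range. The log2 difference was -0.64 (SE 0.16, adjusted p = 0.0658). DESeq2 called it (-0.63, adjusted p = 0.00624), as did edgeR without GF-AOMS replicate 3 (-0.75, adjusted p = 0.0426) and without Control replicate 2 (-0.70, adjusted p = 0.021). Over all alternatives its adjusted p ranged from 0.00624 to 0.999, the upper end being without Control replicates 3 to 6, where the difference was -0.50. With the length slope in the edgeR model the difference was -0.59 (adjusted p = 0.104). With a term for colon position (Hoxa13 and Hoxb13) it was -0.57 (adjusted p = 0.976). The gene shares no 50-base word with another annotated gene.

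H2bc8 ran from 12.8 to 22.2 CPM in GF-AOMS (median 14.99), a difference of -0.47 (SE 0.22, adjusted p = 0.305), and H2bc4 from 104.4 to 201.4 CPM (median 131.3), a difference of -0.46 (SE 0.24, adjusted p = 0.343). With the length slope they stood at -0.72 (adjusted p = 0.0814) and -0.74 (adjusted p = 0.0877). Hist1h4n ran from 0.243 to 1.02 CPM in Control (median 0.784) and from 0.606 to 3.40 in GF-AOMS (median 0.806), a difference of 1.17 (SE 0.60, adjusted p = 0.336). Replicates 1 and 2 of GF-AOMS, both with a low scaling factor, were at 2.85 and 3.40 CPM and the other 4 inside the Control range, and with the length slope the difference was 0.23. H2az1 was above the Control mean in 6 of 6 GF-AOMS libraries (300.5 to 584.7 CPM, median 367.7), a difference of 0.46 (SE 0.23, adjusted p = 0.325) that went to 0.17 with the length slope and 0.04 without Control replicates 3 to 6. Macroh2a1 was at -0.25 (SE 0.14, adjusted p = 0.383) and H3f3a-ps2 at 0.45 (SE 0.25, adjusted p = 0.372).

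**Figure D3:**
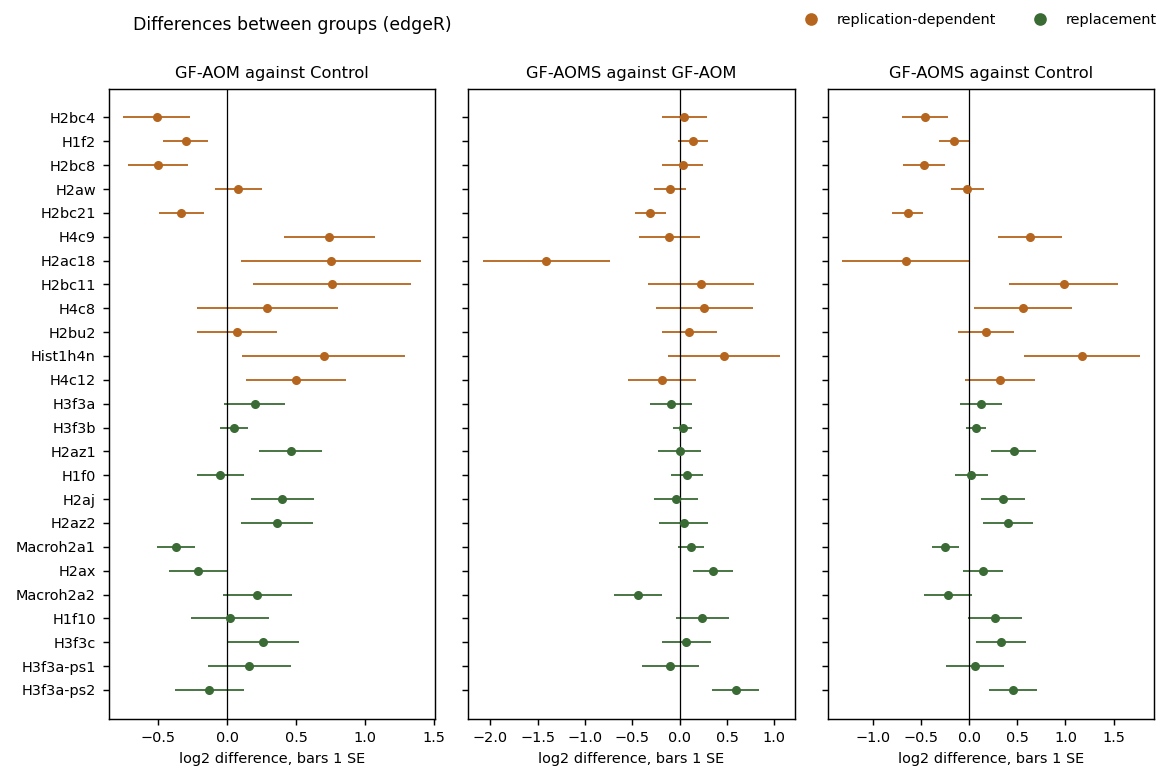
Log2 differences of the 25 histone genes in the 3 comparisons from the edgeR fit, with points for estimates and bars for 1 SE, each panel with its own axis. Genes run from high to low mean CPM within the replication-dependent class (top, brown) and the replacement class (green). H2bc4, H2bc8 and H2bc21 lie left of 0 in both comparisons with Control, and none of the points passed the test.

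Summed over the class, replication-dependent histones stood at 412.3 ± 108.3 CPM in Control, 324.3 ± 78.1 in GF-AOM and 334.0 ± 63.0 in GF-AOMS (SD, n = 6 each). The ranges were 250.3 to 511.8, 216.9 to 425.7 and 270.5 to 422.5 CPM, so the groups overlapped widely with TMM scaling. Without TMM scaling the sums were 421.2 ± 90.3, 311.4 ± 49.4 and 328.1 ± 26.5 per M counts. The unscaled ranges were 289.2 to 520.9, 223.5 to 353.0 and 301.3 to 361.2. There Control replicates 1, 2, 3, 4 and 6 lay above every GF library, and Control replicate 5 was at 289.2. The protein types did not share 1 sign: summed H2B was 242.1, 172.4 and 176.4 CPM, H1 was 141.3, 114.7 and 126.2, and H4 was 7.71, 12.1 and 12.2. Replacement histones summed to 2242 ± 364.5, 2495 ± 337.3 and 2498 ± 315.4 CPM. The ratio of the 2 sums was 0.184 ± 0.0442 in Control, 0.129 ± 0.0202 in GF-AOM and 0.133 ± 0.0105 in GF-AOMS, and it does not depend on the scaling. Control spanned 0.125 to 0.240, with replicates 4 and 6 highest at 0.232 and 0.240. Control replicates 1, 2, 3, 4 and 6 lay above every GF library in this ratio. The highest GF library was GF-AOM replicate 4 at 0.1506, and the highest of GF-AOMS was at 0.1451. Only Control replicate 5, at 0.1254, lay among the GF libraries. No p is given for these sums, since the genes were chosen with results known.

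Across the 18 libraries, with group means removed, the replication-dependent genes varied together more than the replacement genes did, and the size of this depended on scaling. Of 66 pairs within the replication-dependent class 61 correlated positively (median r 0.62, 41 pairs at 0.5 or more), against 40 of 78 replacement pairs (median r 0.07). Without TMM scaling the medians were 0.34 and -0.00, with 54 of 66 and 38 of 78 positive. H2bc4 and H2bc8 were closest, at 0.98 with and 0.97 without TMM scaling. H2az1 and H4c9, which share no sequence by this measure, were at 0.94 and 0.87, and H3f3a and its pseudogene H3f3a-ps1, which shares 35.2% of its words with H3f3a, at 0.96 and 0.87. H2bc21 stood apart from its class, with r from -0.18 to 0.23 against the other 11 genes, and from -0.58 to 0.40 without TMM scaling. These are descriptions over 18 points that share library depth and composition. Some pairs in each class also share sequence and are not independent readings. H4c12 shares 62.0% of its words with H4c8, H2bc8 45.0% with H2bc4 and H3f3c 67.7% with H3f3a.

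**Figure D4:**
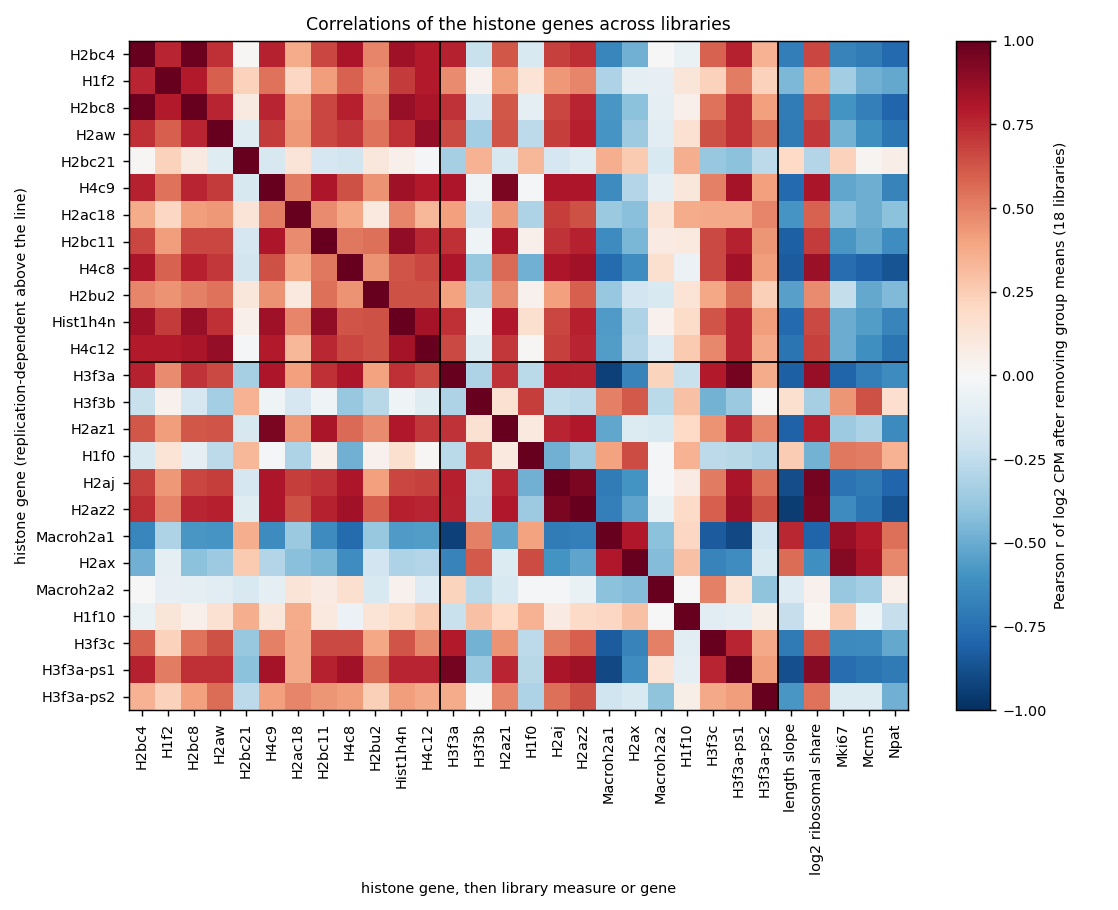
Pearson correlations of log2 CPM over 18 libraries after removal of group means, among the 25 histone genes and, in the right-hand columns, with the length slope, the ribosomal protein share and 3 genes. Red is positive and blue negative. The replication-dependent block at upper left is mostly red except for H2bc21, and Macroh2a1 and H2ax are blue against H3f3a.

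The summed level of the replication-dependent class, which is mostly H2bc4 and H1f2, did not follow the division marker Mki67. The summed replication-dependent CPM had r = -0.60 with Mki67 within groups and -0.28 without TMM scaling. Single members were split: without TMM scaling they ran from -0.77 for H4c8 to 0.66 for H2bc21, with H2bc4 at -0.50 and H1f2 at 0.20. With the length slope the sum had r = -0.69 and with the ribosomal share 0.65, and without TMM scaling -0.20 and 0.21. H2ax did follow Mki67, at 0.92 with and 0.96 without scaling, as did Macroh2a1, at 0.87 and 0.92. Both also ran with the library measures: Macroh2a1 had r = 0.75 with the length slope and -0.80 with the ribosomal share (0.89 and -0.89 without TMM scaling), and H2ax had 0.56 and -0.61 (0.76 and -0.77). Without TMM scaling H3f3b and H1f0 also ran with Mki67, at 0.85 and 0.79, and with scaling H3f3b was at 0.44. H2az2, named here after its values were seen, ran with the length slope at -0.95 and -0.87. Among 10872 other genes, the 10 whose log2 CPM was most like the summed replication-dependent level over the 18 libraries were Cox6a1 (r = 0.89), Bsg (0.86), Ifi27, Mettl26 and Akirin2 (0.85), Dhrs7b, Hcfc1r1 and Mtch2 (0.84), Chmp5 and Crip1 (0.83). None of them is in the lists of S phase or mitosis. Those lists hold only 31 and 23 of the 10872 genes, so this absence carries little information. By list, the median r within groups with that level was 0.68 for 83 ribosomal protein genes, all positive. It was -0.25 for 31 S phase genes and -0.43 for 23 genes of G2 and mitosis, beside -0.03 for all genes. Of the other lists, crypt stem and progenitor markers were lowest at -0.60 and goblet cell markers highest at 0.59. These medians and the 10 genes named were taken with TMM scaling only.

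**Figure D5:**
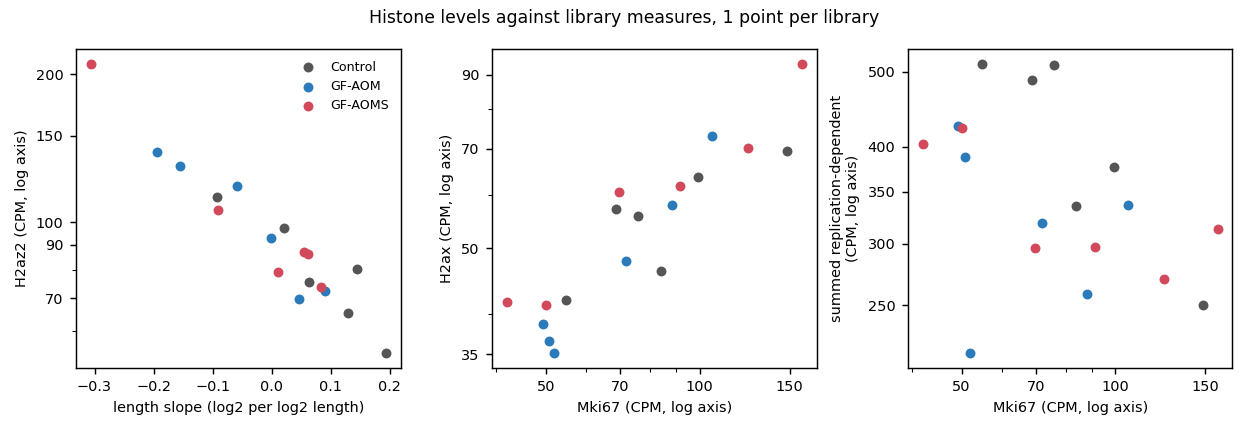
Each point is 1 of the 18 libraries, coloured by group. Left, H2az2 CPM (log axis) against the length slope; middle, H2ax CPM against Mki67 CPM (both log axes); right, summed replication-dependent CPM against Mki67 CPM (both log axes). H2az2 falls with the slope, H2ax is high where Mki67 is high, and the summed class does not climb with Mki67.

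The genes that make, handle and deposit histones gave no call either. Of the regulators of histone gene transcription 5 of 10 listed genes were measured, and 0 passed in any comparison. In GF-AOMS against Control the 2 smallest p belonged to E2f1, a transcription factor of S phase entry, at 0.30 (SE 0.14, adjusted p = 0.301), and Ccne1, the cyclin that starts S phase, at 0.34 (SE 0.17, adjusted p = 0.328). Of histone mRNA processing and decay 19 of 20 genes were measured. Lsm11, a subunit of the U7 particle that cuts histone mRNA, was at 0.29 against Control in GF-AOMS (SE 0.12, adjusted p = 0.262), while Cpsf3, the cutting enzyme, was at -0.19 in GF-AOM against Control and 0.19 in GF-AOMS against GF-AOM. Slbp averaged 66.4 ± 8.58, 65.9 ± 8.29 and 64.9 ± 7.81 CPM in Control, GF-AOM and GF-AOMS (SD, n = 6).

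Of 16 measured chaperones of replication-coupled assembly 0 passed. Nap1l4, an H2A-H2B chaperone, was at 0.28 in GF-AOM against Control (SE 0.12, adjusted p = 0.284), and Chaf1b, a subunit of the CAF-1 complex, at 0.39 in GF-AOMS against GF-AOM (SE 0.18, adjusted p = 1). Of 20 chaperones and exchangers of replacement histones 0 passed. Supt6 was at -0.42 in GF-AOM against Control (SE 0.19, adjusted p = 0.31), and Daxx, which deposits the replacement H3, at -0.25 in GF-AOMS against Control (SE 0.11, adjusted p = 0.274). In GF-AOMS against GF-AOM 29 of 31 S phase genes and 23 of 23 genes of G2 and mitosis were positive. Of all 10897 genes 5843 were. The medians were 0.18 and 0.35 against 0.01 over all genes, and 0 genes passed. In GF-AOM against Control, 21 of the 23 genes of G2 and mitosis were negative, with a median of -0.24. In GF-AOMS against Control their median was 0.09. The S phase medians against Control were 0.01 in GF-AOM and 0.21 in GF-AOMS. Mki67 itself averaged 88.5, 69.6 and 89.3 CPM in the 3 groups. The 83 ribosomal protein genes, all positive against Control with medians of 0.84 and 0.81, also had 0 calls.

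Of the markers of cell types that whole colon holds, only some of the absorptive colonocyte list passed, and only in 1 comparison. Of 14 absorptive colonocyte markers 4 passed in GF-AOMS against Control, all lower: Car1 at -3.91 (SE 0.70, adjusted p = 0.0304), Cdhr5 at -1.34 (SE 0.27, adjusted p = 0.0304), Cdhr2 at -1.26 (SE 0.27, adjusted p = 0.042) and Selenbp1 at -1.50 (SE 0.31, adjusted p = 0.0393). In GF-AOM against Control 0 of the 14 passed, with Car1 at -3.93 and Selenbp1 at -1.71 (adjusted p = 0.0638 each). These 4 calls are not stable: no gene of the table passed in GF-AOMS against Control with only the 2 groups compared, with the colon position term, without Control replicates 3 to 6, or with any 1 of Control replicates 3, 4 and 6 or GF-AOMS replicates 2, 4, 5 and 6 left out. Summed, these markers ran from 5343 to 27130 CPM in Control, 2519 to 5122 in GF-AOM and 3090 to 4749 in GF-AOMS. No marker of the other lists passed. In GF-AOM and GF-AOMS against Control their medians were -0.31 and -0.22 for 9 crypt stem and progenitor genes, 0.41 and 0.39 for 10 goblet cell genes, 0.37 and 0.43 for 10 smooth muscle genes and 0.88 and 0.49 for 8 plasma cell genes. They were 0.41 and 0.33 for 7 T cell genes, 0.30 and 0.33 for 2 B cell genes and 0.09 and 0.17 for 4 erythroid genes, and the neutrophil gene Retnlg was at 1.19 and 1.76. The part of cell composition in the histone values was not tested.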

How the data were processed

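Total RNA of colon was depleted of ribosomal RNA and sequenced as strand-specific libraries, per the labels' protocols. The authors deposited 1 table with counts and FPKM per gene and library. The submitters' processing notes name featureCounts, DESeq2 and the build GRCm39, while the deposited gene positions match GRCm38. No source used here gives the aligner, the versions or the treatment of reads with several matches.

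Deposited counts of 10897 genes were tested with edgeR 4.0.16 (R 4.3.3): quasi-likelihood test, TMM scaling, 3 group means, 18 libraries in 1 fit with 15 residual degrees of freedom, two-sided, Benjamini-Hochberg adjustment over all genes, threshold 0.05. CPM are TMM-scaled, and log2 CPM used a prior count of 2. Deposited FPKM served to compare genes and, with a pseudocount of 1, for limma 3.58.1. DESeq2 1.42.0 was an alternative. The scripts were tested on simulated data. In all 32 alternatives were run, including other scalings and filters, a colon position term (Hoxa13 and Hoxb13), a length slope term, a replicate block, each library left out, and 2 sets of left-out libraries chosen after seeing the data. The main fit did not pair samples by replicate number.

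Members and gene lists were chosen with earlier results of these data known. Named members are, per class, the 3 with the smallest p in each comparison, the 3 with the highest FPKM and those at the ends of the order. From each list called genes and some of the 2 genes with the smallest p are named. Other members with values, among them H2ax, H2az2, H1f0 and H4c8, were chosen after their values were seen. Shared sequence was counted over 50-base words of GENCODE M21 transcripts. Promoters come from RefSeq, GRCm38.p6.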

Additional observations from a re-analysis of the deposited data

Results flagged for a closer look

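In 3 of 81 groups of 6 libraries, over 27 values, 1 library stood far from the rest, where chance flags about 1 in 20. H2az2 was at 210.1 CPM in GF-AOMS replicate 2, against 73.8 to 106.0 in the other 5 libraries of that group. H4c8 was at 4.79 CPM in the same library, against 0.661 to 2.05. H3f3a was at 1078 CPM in Control replicate 2, against 521.3 to 729.7. Both libraries are among the 5 with a scaling factor under 0.9. H3f3a stood at 917.1 to 1082 CPM in all 5 of these libraries, which come from all 3 groups.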

How the results depend on the processing

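No histone gene was called in the edgeR fit reported, so none could be lost, and no replacement histone gene was called under any of the 32 alternatives. H2bc21 was the only replication-dependent gene called, in GF-AOMS against Control, under DESeq2 (1 gene) and without Control replicate 2 or GF-AOMS replicate 3, so leaving out 1 library gave 0 to 1 calls. The count over the whole table depended on the setting. In GF-AOM against Control, with 1 gene called, it was 284 under DESeq2, 132 without the 5 libraries with a scaling factor under 0.9, 0 under limma with each pseudocount (1, 0.1 and 5), with no scaling, with only the 2 groups compared and with the colon position term, and 0 to 356 with 1 library left out. In GF-AOMS against Control, with 80 genes called, it was 375 under DESeq2, 277 without those 5 libraries, 19, 20 and 24 under limma with pseudocounts of 1, 0.1 and 5, 47 with upper quartile scaling, 28 with no scaling, 6 with the length slope term, 0 with only the 2 groups compared, with the colon position term and without Control replicates 3 to 6, and 0 to 493 with 1 library left out. In GF-AOMS against GF-AOM, with 0 genes called, it was 3 under DESeq2, 2 under limma with a pseudocount of 5, 2 with the length slope term and 1 without those 5 libraries. The replication-dependent median between GF-AOM and Control, 0.19, was -0.30 with the length slope term and -0.11 over genes with an FPKM of at least 5 in 6 libraries. The latter median covers fewer members, since the filter drops part of the class. The medians of this class in the other 2 comparisons also changed sign with the setting. The replacement median between GF-AOM and Control, 0.16, was -0.06 with the length slope term and -0.09 without Control replicates 3 to 6. The causes were not tested. With the replicate block the counts were 2, 0 and 33 genes for GF-AOM against Control, GF-AOMS against GF-AOM and GF-AOMS against Control, and H2bc21 in the last had an adjusted p of 0.0941 in edgeR. Over 18 pairs of libraries with the same number the correlation of deviations ran from -0.619 to 0.517, with 7 above 0.1. Pairs with different numbers were not set beside them, so these values cannot show whether the numbers pair samples. Depth limits Hist1h4n, H4c12, H2bc11, H2ac18 and H4c8, whose lowest counts in a library were 10, 13, 24, 26 and 27.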
